A study of Mus musculus with 2 samples.

Results

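Cpe encodes carboxypeptidase E, and its level was followed through single liver cells sorted by a reporter of p16Ink4a. It is 1 of 19073 features of the probe set (ENSMUSG00000037852; mm10 chromosome 8, 64592542 to 64693054, minus strand; 9 exons in the transcript Cpe-201 of the GENCODE annotation). The cells came from male p16-Tom mice on a C57BL/6 background, heterozygous for p16-CreERT2 and carrying a Cre-dependent tdTomato cassette at Rosa26, and both groups had received carbon tetrachloride (CCl4) for 4 weeks together with tamoxifen. In these mice tamoxifen turns tdTomato on for good in cells whose p16 promoter is active at that time, in any cell type, so the reporter records past activity. The fixed livers were dissociated, and cells positive for a nuclear and a mitochondrial dye were sorted into a Tom- and a Tom+ fraction, each of which gave 1 library. No library is repeated and the number of mice behind each is not stated, so no test between groups is possible and every interval below is a 95% interval for counting error alone.

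Cpe was chosen by its measured ratio of Tom+ over Tom- in pericentral hepatocytes, so that ratio is given as a description and supports nothing. In zone 3-like cells Cpe was at 3.57 CPM in the Tom- library and 11.3 CPM in the Tom+ library, where CPM (the count scaled to equal depth) comes from UMIs summed over the class. The log2 ratio was 1.66 (1.42 to 1.91), the third highest of 9939 genes, after Dbp (2.21) and Orm3 (1.76), a secreted acute-phase protein. Cpsf4l came next at 1.57.

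Carboxypeptidase E trims the basic residues left at the end of a peptide after a prohormone convertase has cut its precursor, and it is best known from the secretory granules of endocrine cells and neurons. Hepatocytes differ along the lobule: those next to the central vein (pericentral, zone 3) receive Wnt signals and express glutamine synthetase (Glul), and those near the portal tract (periportal, zone 1) make urea and glucose. Dbp is a transcription factor of the circadian output, and its level rises and falls through the day.

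The Tom- library held 23220 barcodes with 681279005 UMIs, and the Tom+ library 16339 barcodes with 715333889 UMIs. Cpe had 451 UMIs in the first and 3117 in the second. After filtering, 20159 and 13378 cells remained, with medians of 26694 and 36075 UMIs. The 2 libraries had 503 barcode sequences in common. The reporter went with the labels, since tdTomato in zone 3-like cells was at 124.1 CPM in Tom- and 928.8 CPM in Tom+. Hepatocytes were 10975 Tom- and 10284 Tom+ cells. The clusters left out carried markers of other cells or few genes per cell. Those kept as hepatocytes still include cluster 8 (230 Tom- and 400 Tom+ cells), led by the collagen genes Col1a2 and Col1a1 and by Dcn, and cluster 13 (12 and 237 cells), led by Mrc1, Stab2 and Cd163, genes of sinusoidal endothelial and Kupffer cells. Neither has a zone name.

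Among the named hepatocyte zones, Cpe was highest in the pericentral one in both libraries. In the Tom+ library it was at 0.691 CPM in zone 1-like cells (0.532 to 0.883; 64 UMIs in 2255 cells), at 1.42 in zone 2-like cells (1.04 to 1.91; 45 UMIs in 629 cells) and at 11.3 in zone 3-like cells (10.7 to 11.8; 1722 UMIs in 3940 cells). In the Tom- library the same order was 0.114 (0.0675 to 0.180; 18 UMIs in 4395 cells), 0.228 (0.135 to 0.360; 18 UMIs in 1653 cells) and 3.57 (3.02 to 4.19; 149 UMIs in 1327 cells). The intervals of neighbouring zones did not overlap in the Tom+ library, while those of zones 1 and 2 overlapped in the Tom- library. Zone 3-like over zone 1-like cells gave a log2 ratio of 4.03 (3.67 to 4.41) in Tom+ and 4.97 (4.26 to 5.76) in Tom-. Zone 3-like cells were 29.5% of the Tom+ cells kept and held 67.5% of their Cpe UMIs. In the Tom- library they were 6.58% of the cells and held 35.5%.

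**Figure D1:**
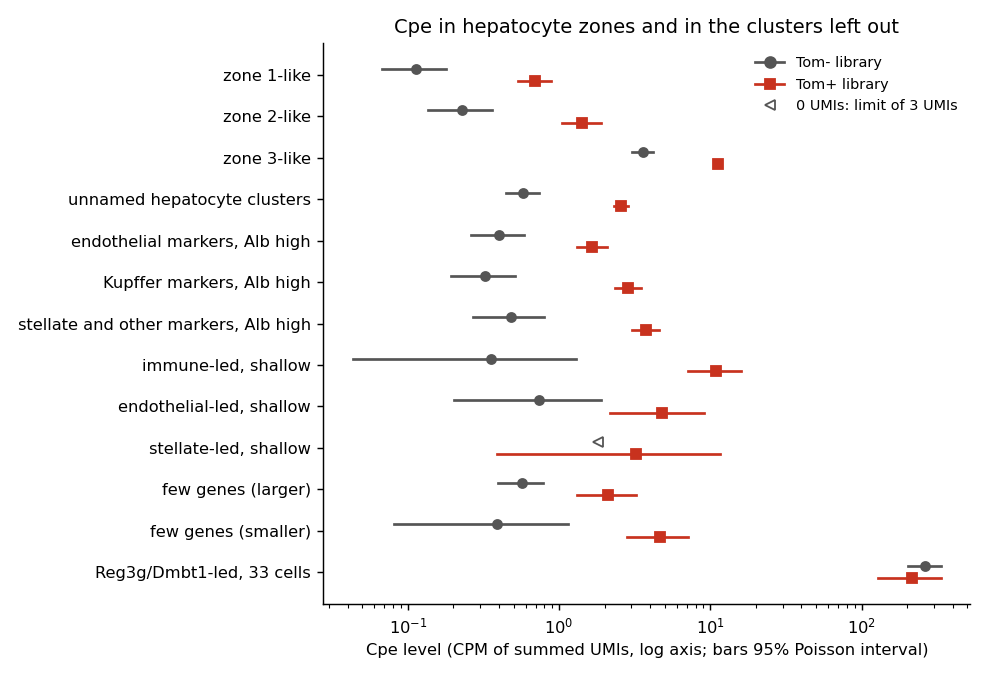
Cpe level in CPM of summed UMIs (log axis) in the hepatocyte zones and in each cluster left out, with circles for the Tom- library, squares for the Tom+ library bars for the 95% Poisson interval and an open triangle at the limit of 3 UMIs where a class had 0. Zone 3-like cells stood above the other zones in both libraries, and the cluster of 33 cells led by Reg3g and Dmbt1 stood above every other class drawn, at 260.7 CPM in Tom- and 214.3 CPM in Tom+. The highest Tom+ cell of that cluster held 16 of its 19 Tom+ UMIs.

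The low level of Cpe outside zone 3 was set beside that of Glul, which pericentral hepatocytes make. Zone 1-like cells had Cpe at 3.19% of the zone 3-like level in the Tom- library and Glul at 2.71%, and in the Tom+ library the values were 6.13% and 4.49%. Zone 2-like cells had Cpe at 6.38% and Glul at 5.67% in Tom-, and at 12.6% and 6.84% in Tom+, where the pair differed most. There were 16.8 Cpe UMIs for 1000 Glul UMIs in Tom- zone 1-like cells, 16.0 for zone 2-like and 14.2 for zone 3-like, so the ratio was close to one value across the 3 classes. In the Tom+ library it was 52.9, 71.5 and 38.7. The part of free RNA in the low levels was not tested, and the log2 ratio of Tom+ over Tom- in zone 1-like cells (2.60, 1.83 to 3.44) rests on levels at which Glul too was higher in Tom+ (13.1 against 6.80 CPM).

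Few cells had a Cpe UMI at equal depth. With every cell thinned to 5000 UMIs, 5.11% of Tom+ zone 3-like cells (4.44 to 5.84) and 1.44% of Tom- zone 3-like cells (0.867 to 2.23) had one, with 5 and 3 shallower cells left out. Unthinned shares were 18.5% and 6.93%, at median depths of 33984.5 and 28894 UMIs. In zone 1-like cells the thinned shares were 0.401% (0.184 to 0.760) and 0.0456% (0.00553 to 0.165), at medians of 37319 and 32789 UMIs. The zone 3-like share thus stood above the share in zone 1-like cells of the same library by more than counting error.

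A finer view came from a lobule position score, the mean of the zone 3 markers without Glul minus the mean of the zone 1 markers, with all hepatocytes split into 10 bins of equal cell number. From the periportal to the pericentral end, Cpe in Tom+ cells went from 0.619 CPM in the first bin through 1.82 in the fifth, 4.12 in the seventh, 6.30 in the eighth and 6.60 in the ninth to 15.6 in the last (14.7 to 16.6). The eighth and ninth bins had overlapping intervals, and the last stood apart from both. In Tom- cells the level lay between 0.0786 and 0.253 CPM over the first 5 bins and reached 0.453, 0.946, 1.16, 2.23 and 5.70 CPM in the other 5. In Tom+, Glul, which the score did not use, rose more steeply than Cpe at the end, from 131.8 to 564.4 CPM between the ninth and the last bin. In Tom- Glul went from 145.5 to 459.4 CPM. The Tom- Cpe levels of these 2 bins rest on 54 UMIs (1.67 to 2.91 CPM) and 83 UMIs (4.54 to 7.06 CPM), so no difference in steepness was resolved there.

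**Figure D2:**
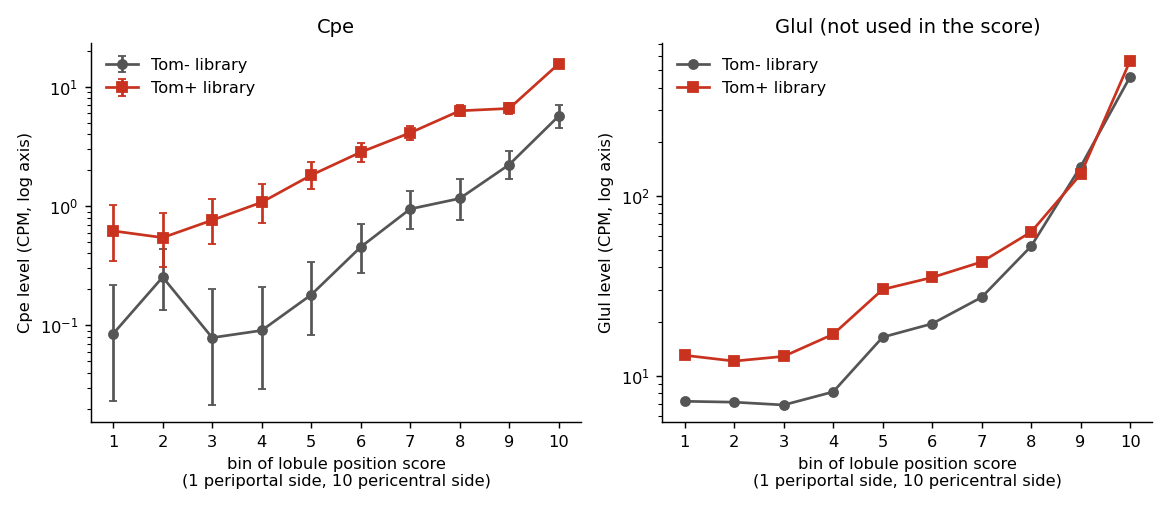
Cpe (left, with 95% Poisson bars) and Glul (right) in CPM on log axes against the bin of the lobule position score, from periportal (1) to pericentral (10), in the Tom- (circles) and Tom+ (squares) libraries. Cpe was higher in Tom+ in each bin and climbed over the pericentral side of both libraries to 15.6 and 5.70 CPM, while Glul of the 2 libraries lay close in the ninth bin at 131.8 and 145.5 CPM. Between the libraries, the direction in the pericentral bins restates how Cpe was chosen.

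Cpe was higher in Tom+ in 10 of 10 bins, with log2 ratios from 1.10 to 3.57. Of the Tom+ cells, 89.0% in the ninth bin and 97.3% in the last were zone 3-like. Cpe was chosen by its ratio in pericentral cells, so nothing is read from the direction in the pericentral bins. Only in the second bin did the interval hold 0 (-0.05 to 2.28). In the last bin the ratio was 1.46 (1.13 to 1.80). Over all hepatocytes the log2 ratio was 3.05 (2.87 to 3.25), and with the bins of the Tom+ library weighted as in the Tom- library it was 2.06. The Tom+ library held more pericentral cells, 1673 against 452 in the last bin.

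The zone 3-like cells fell into 3 clusters that differed in Cpe. Cluster 1, led by Slc1a2, Rhbg and Glul, had Cpe at 9.35 CPM in 2095 Tom+ cells (8.69 to 10.0) and 3.86 in 1017 Tom- cells (3.23 to 4.58). Cluster 6, led by H2-Q1, Snhg11, Ces2c and Dbp, was 96.6% Tom+ and had Cpe at 14.9 CPM in 1547 Tom+ cells (13.9 to 15.8). Its 55 Tom- cells gave 11 UMIs and 7.36 CPM (3.67 to 13.2). The highest of these Tom- cells held 7 of the 11 UMIs, so that level rests largely on that cell. Cluster 9, led by Scara5, Slc1a5, Axin2 and Lgr5, had only 3.66 CPM in 298 Tom+ cells (2.55 to 5.09) and 0.987 in 255 Tom- cells (0.362 to 2.15). Glul was not low there. It was at 289.2 CPM in Tom+ and 328.2 CPM in Tom- cells of cluster 9, against 317.6 and 240.8 in cluster 1 and 258.2 in the Tom+ cells of cluster 6. Cpe UMIs for 1000 Glul UMIs were 12.7 in cluster 9, 29.4 in cluster 1 and 57.6 in cluster 6 of the Tom+ library, so the pericentral clusters did not rank by Glul. Most Tom- zone 3-like cells lay in cluster 1, while the Tom+ cells were shared between clusters 1 and 6. Without the clusters of at least 90% Tom+ cells the zone 3-like log2 ratio of the libraries was 1.35 (1.09 to 1.62).

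Among hepatocyte clusters without a zone name, cluster 12, led by the interferon-response genes Rsad2, Cxcl10 and Ifit3b, had Cpe at 8.15 CPM in 144 Tom+ cells (6.05 to 10.7) and 1.01 in 170 Tom- cells (0.329 to 2.36). Glul there was at 180.5 and 69.9 CPM, and 6 zone 3 markers were raised. Cluster 14, led by the mitosis genes Pif1, Troap and Hmmr, had 13 Cpe UMIs in 35 Tom+ cells (9.82 CPM, 5.23 to 16.8) and 0 in 21 Tom- cells, which allows up to 3.97 CPM at 3 UMIs. Only 11.4% of those Tom+ cells held a Cpe UMI, and 2 of them held 5 or more each, so the level rests largely on these 2 cells. Cluster 8, led by collagen genes, held 33 Cpe UMIs in Tom+ (1.72 to 3.51 CPM) and 4 in Tom- (0.146 to 1.37 CPM). Cluster 13, led by endothelial and Kupffer genes, was at 3.91 CPM in Tom+ (39 UMIs) and 10.6 in Tom- (4 UMIs in 12 cells). The highest Tom- cell held 3 of those 4 UMIs. The log2 ratio was -1.44 with an interval that held 0 (-2.91 to 0.51), so no direction was resolved. The remaining unnamed clusters with at least 100 Tom+ cells lay between 1.02 and 2.94 CPM in Tom+ and between 0.172 and 1.26 in Tom-.

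Outside the hepatocytes, the cells with most Cpe were a cluster of 33, 24 of them Tom-, led by Reg3g, Dmbt1, Duox2 and Gabrp. Cpe was at 260.7 CPM in its Tom- cells (201.2 to 332.2; 65 UMIs) and 214.3 in its 9 Tom+ cells (129.0 to 334.6; 19 UMIs), a log2 ratio of -0.28 (-1.10 to 0.47). The highest Tom+ cell held 16 of the 19 UMIs, so the Tom+ level and the ratio rest largely on that cell. The cluster held 7 of 7 mesothelial and 9 of 10 cholangiocyte markers at least 1.5-fold above the other cells, and its median depth was 4098 UMIs, so it was given no cell type name. A split made after the values were seen, by whichever marker list had the larger sum in a cell, put all the Cpe on one side. The 28 cells with more mesothelial markers (Msln, Upk3b and Wt1 among them) held 84 Cpe UMIs, or 360.0 CPM (287.1 to 445.7), in 17 cells. The 5 cells with more cholangiocyte markers (Krt19, Epcam and Spp1 among them) held 0, which allows up to 28.7 CPM at 3 UMIs over the 5.

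Other clusters left out were low in the Tom- library, from 0 UMIs in 181 cells of the stellate-led cluster, which allows up to 1.79 CPM at 3 UMIs, to 0.740 CPM in the shallow endothelial-led one. Tom+ levels were above them in each cluster, though the stellate-led one rests on 2 UMIs. Cpe was at 1.66 CPM in the cluster with 12 of 12 endothelial markers raised (78 UMIs), 2.87 in that with 10 of 10 Kupffer markers (107 UMIs) and 3.75 in that with 11 of 12 stellate, 12 of 12 endothelial and 10 of 10 Kupffer markers (100 UMIs). These 3 clusters also had albumin at 121786, 119120 and 109358 CPM over both libraries, and Cpe UMIs for 1000 Glul UMIs of 35.0, 44.1 and 36.9, beside 38.7 in Tom+ zone 3-like cells. An immune-led cluster of median depth 7175 UMIs (9 of 12 leukocyte, 10 of 10 Kupffer, 12 of 12 endothelial and 9 of 12 stellate markers, albumin at 104550 CPM) had 26 Cpe UMIs in 196 Tom+ cells, 10.8 CPM (7.07 to 15.8), and 2 UMIs in 547 Tom- cells. Only 5.10% of those Tom+ cells held a Cpe UMI, and the highest held 7. The ratio of Cpe to Glul in this cluster was 152.0 for 1000 in Tom+. Whether doublets or free RNA carry Cpe into these clusters was not tested.

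Within zone 3-like cells Cpe was very unequal from cell to cell. Of 3940 Tom+ cells, 3213 had no Cpe UMI, 389 had 1, 155 had 2, 107 had 3 or 4 and 76 had 5 or more. The highest had 31. Those 76 cells, 1.93% of the class, held 37.9% of its Cpe UMIs, and 22 of them had at least 10. In the Tom- library 1235 of 1327 cells had none, 4 had 5 or more and the highest had 7.

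**Figure D3:**
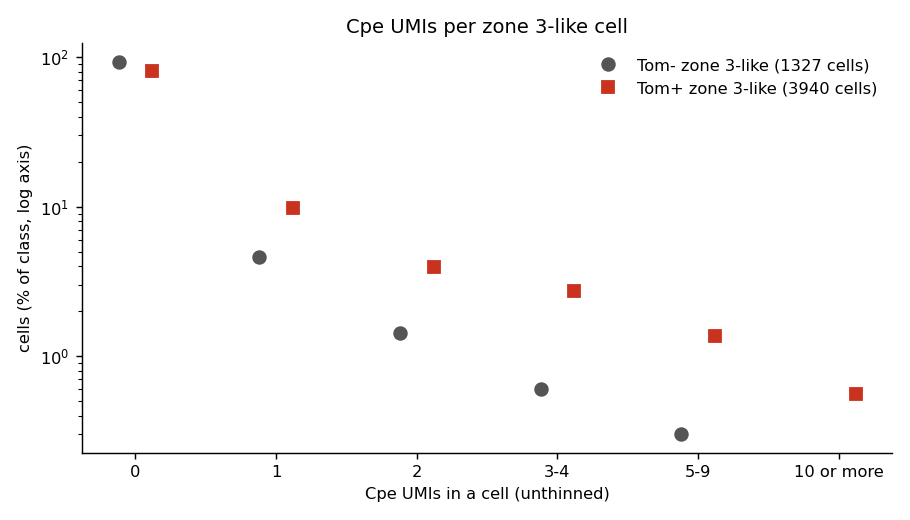
Share of zone 3-like cells (percent, log axis) by their number of unthinned Cpe UMIs, for 1327 Tom- cells (circles) and 3940 Tom+ cells (squares). The Tom+ points lie above the Tom- points at every count from 1 up, and no Tom- cell had 10 or more.

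Thinning to 20000 UMIs took depth out of this spread. The variance of Cpe over 3144 Tom+ zone 3-like cells was then 2.73 times its mean. Over 2774 genes at 5 to 20 CPM in the same cells the median of this ratio was 1.05, and 11 genes lay above Cpe. The highest were Fos (8.02), an immediate early gene, Cd14 (6.47) and S100g (5.07), named after their values were seen. Dbp had a ratio of 4.23.

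Markers of other cell types did not all move one way with Cpe. In Tom+ zone 3-like cells with 5 or more Cpe UMIs, the summed endothelial markers were at 53.7 CPM, against 66.7 in cells with 1 to 4 and 69.8 in cells with none. Kupffer markers were at 142.1, 176.7 and 181.1 CPM, leukocyte markers at 16.6, 21.6 and 19.7, and stellate markers at 99.6, 88.0 and 81.0. Of the 7 mesothelial markers, which marked the cells with most Cpe, 2 were detected at a sum of 1.01 CPM, against 0.333 in cells without Cpe. Cholangiocyte markers were at 40.6, 18.5 and 16.4 CPM, with 5 of 10 detected in the 76 cells. Zone 3 markers went from 11724 CPM in cells without Cpe to 13097 in cells with 5 or more, and zone 1 markers from 6763 to 4679. Median depths were 32837, 39745 and 52344 UMIs for 0, 1 to 4, and 5 or more.

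The 3 partner genes were then set against Cpe in zone 3-like cells with at least 20000 UMIs, all thinned to that number (3144 Tom+ and 1010 Tom- cells). The 5 Glul classes split the Tom+ cells as evenly as ties allow and have the same limits in Tom-. In Tom+ cells Cpe was at 6.09 CPM where Glul had 0 UMIs (4.82 to 7.61), 10.1 at 1 or 2, 7.02 at 3 or 4, 12.9 at 5 to 9 and 21.9 at 10 or more (19.4 to 24.7). The first 3 classes had no steady order. The highest over the lowest class gave a log2 ratio of 1.85 (1.48 to 2.23). It was between 1.51 and 1.86 in 4 other thinning draws, chosen after the data were seen, and 0.97 (0.48 to 1.44) with cells thinned to 5000 UMIs. In Tom- cells the levels were 2.94, 1.77, 1.72, 6.42 and 7.32 CPM, a ratio of 1.31 (0.26 to 2.45). The ratio of the libraries within these classes uses the values by which Cpe was chosen, and nothing is read from it.

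Dbp also went with Cpe in the Tom+ library. Cpe was at 9.60 CPM in 2329 Tom+ cells without a Dbp UMI (8.73 to 10.5), 12.8 in 380 cells with 1, 15.4 in 136 cells with 2 and 24.6 in 299 cells with 3 or more (20.8 to 28.9). The highest over the lowest class gave 1.36 (1.08 to 1.63), above the 1.11 to 1.24 of 4 other thinning draws. With cells thinned to 5000 UMIs it was 1.04 and the interval held 0 (-0.19 to 2.05). In Tom- cells Cpe was at 3.50 CPM in 899 cells without Dbp (2.69 to 4.48) and 6.40 in 86 cells with 1 Dbp UMI (3.19 to 11.4), with overlapping intervals. The 15 cells with 2 and the 10 cells with 3 or more held 1 Cpe UMI each, so the ratio of highest over lowest class (0.51, -4.81 to 3.04) was not resolved at this depth.

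The relation to Dbp is given by cluster, and the difference between clusters was not tested. In cluster 6 the Tom+ cells with a Dbp UMI had Cpe at 21.0 CPM and those without at 11.1, a log2 ratio of 0.92 (0.61 to 1.22). In Tom+ cells of cluster 1 the levels were 10.7 and 9.51 CPM, and the ratio was 0.17 (-0.30 to 0.62). In Tom- cells of cluster 1 they were 7.23 and 3.75 CPM, a ratio of 0.95 with a wide interval that held 0 (-0.09 to 1.86). In cluster 9 the 26 Tom+ cells with Dbp held no Cpe UMI, and the 189 without were at 5.03 CPM, with an upper limit of 0.64 for the log2 ratio. Its Tom- cells were at 0 and 0.870 CPM (19 and 115 cells). Dbp is among the leading genes of cluster 6. Without the clusters of at least 90% Tom+ cells the ratio of highest over lowest Dbp class was 0.50, with an interval that held 0 (-0.42 to 1.30). For Glul, split above and at or under the Tom+ median of 2 UMIs, the ratio was 1.56 in cluster 1 (1.18 to 1.95) 0.55 in cluster 6 (0.26 to 0.85) and 0.60 in cluster 9, where the interval held 0 (-0.86 to 2.19).

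Taking both genes together, Tom+ cells low in Glul and without Dbp had least Cpe, at 5.73 CPM (4.82 to 6.77; 1212 cells). With low Glul and Dbp present the level was 16.5 (13.8 to 19.4; 422 cells), with high Glul and no Dbp 13.8 (12.3 to 15.4; 1117 cells), and with both 18.7 (15.8 to 22.0; 393 cells). The intervals of the last 3 all lay above that of the first. The interval with low Glul and Dbp present overlapped both of the others, while high Glul without Dbp and high Glul with Dbp did not overlap. These levels come from a single thinning draw, and the variance of Cpe over these Tom+ cells was 2.73 times its mean. The intervals leave that spread out, so the narrow gap between the 2 high Glul groups is not read as a difference. The Tom+ groups also differed in cluster makeup. Tom+ cells with a Dbp UMI were 570 in cluster 6, 219 in cluster 1 and 26 in cluster 9. Those without were 662, 1478 and 189. The part of this makeup in the levels was not tested. Tom- cells were at 1.86 CPM with neither (1.09 to 2.98) and 5.19 with high Glul alone (3.80 to 6.93). With Dbp present they were at 5.17 with low Glul (1.90 to 11.3; 6 UMIs) and 6.60 with high Glul (2.66 to 13.6; 7 UMIs), so both levels were higher than without Dbp, with overlapping intervals.

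No order of Cpe by tdTomato held at every depth inside the Tom+ library. In 5 classes of rising tdTomato, Cpe was at 7.79, 13.6, 14.7, 9.26 and 13.6 CPM, with the lowest class (0 to 10 tdTomato UMIs in 20000) below the others, though its interval (6.43 to 9.35) overlapped that of the fourth class, and no order among the rest. The log2 ratio of the highest over the lowest class was 0.80 (0.45 to 1.16), but it was between 0.25 and 0.76 in 4 other thinning draws, and its interval held 0 in the lowest of them (-0.13 to 0.64) and with cells thinned to 5000 UMIs (0.04, -0.56 to 0.63). Over all 17 alternatives the ratio ran from 0.04 to 1.16. In Tom- zone 3-like cells the 4 classes that ties allowed were at 4.18, 3.10, 3.57 and 4.01 CPM (-0.06, -1.19 to 0.96).

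**Figure D4:**
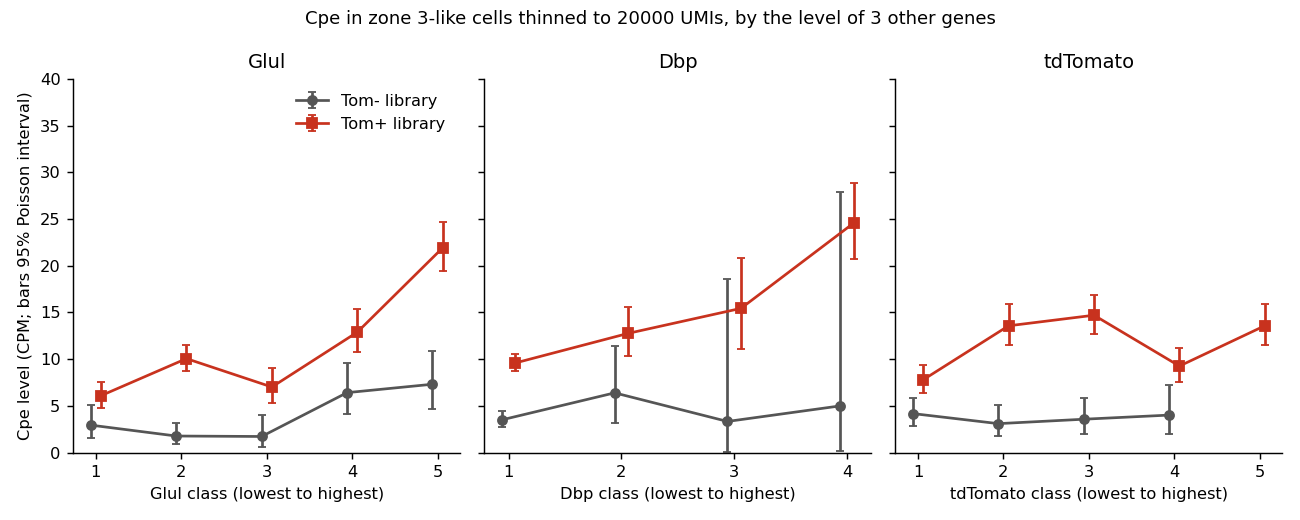
Cpe level (CPM, bars 95% Poisson interval) in zone 3-like cells thinned to 20000 UMIs, by class of Glul (5 classes), Dbp (0, 1, 2, 3 or more UMIs) and tdTomato (classes set within each library), for the Tom- (circles) and Tom+ (squares) libraries. In Tom+ the level reached 21.9 CPM in the top Glul class and 24.6 in the top Dbp class, and tdTomato shows no steady order above its lowest class.

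Genes that followed Cpe from cell to cell were ranked by Pearson's r of log values across the 3940 Tom+ zone 3-like cells, among 6206 genes at 20 CPM or more. These r values are descriptions. The cells share 1 library and differ in depth, and most hold no Cpe UMI. The median r was 0.01. Clu, a secreted chaperone, came first (0.32), followed by Cd63, a tetraspanin of late endosomes and secretory vesicles (0.25), and Ugdh, which makes UDP-glucuronate (0.24). The next were Nrn1 (0.19), a membrane-anchored neuritic protein, Acsl4 (0.18), an acyl-CoA synthetase of polyunsaturated fatty acids, Ccdc85b (0.18), Itm2b (0.18), a membrane protein cleaved by furin, and Tpm1 (0.18), a tropomyosin. Dst (0.18), a cytoskeletal linker, Slc1a2 (0.17), a glutamate transporter of pericentral hepatocytes, Tmem176b (0.17), Dmpk (0.17), Adh1 (0.16), an alcohol dehydrogenase, Cyp2c55 (0.16) and Mfge8 (0.16), a secreted bridging protein, closed the 15. Glul ranked 25 (0.15) and Dbp 99 (0.10).

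The 5 genes that went most against Cpe were Rdh16f2 (-0.33), Gnmt (-0.27), a methyltransferase of glycine, Pck1 (-0.27), the key enzyme of gluconeogenesis, Cyp3a11 (-0.27) and Igfbp2 (-0.27), a secreted binding protein of insulin-like growth factors. In the Tom- library all 15 followers had a positive r (0.11 to 0.26) and all 5 opposing genes a negative one (-0.29 to -0.20), and 7 of the 15 were also among the 15 highest there. Cd63 had nearly the same r in both libraries (0.25 and 0.26), while Clu fell from 0.32 to 0.11.

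**Figure D5:**
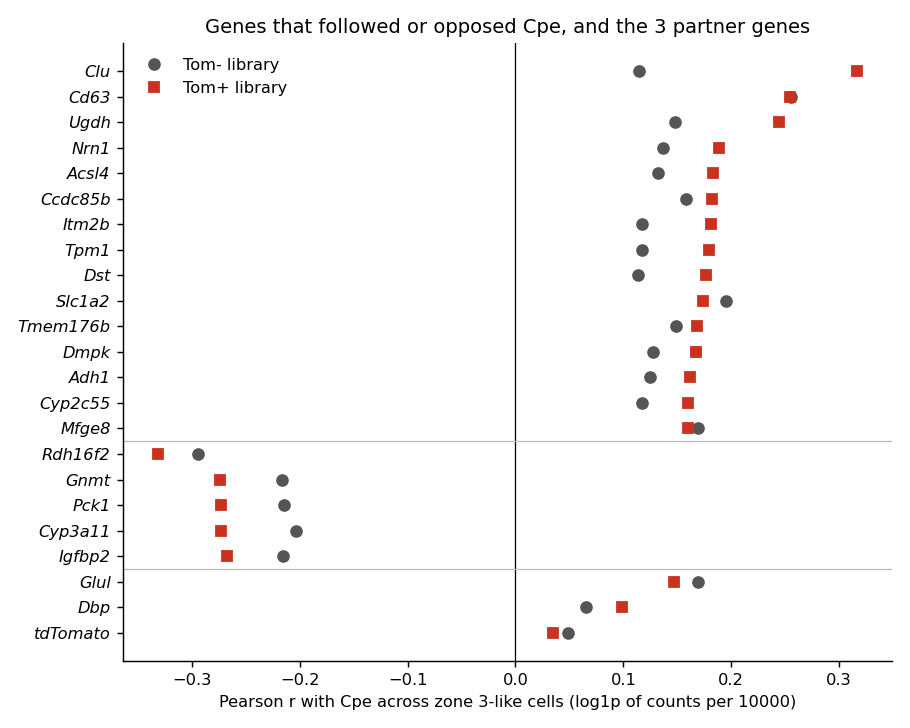
Pearson's r with Cpe across zone 3-like cells of the Tom+ (squares, 3940 cells) and Tom- (circles, 1327 cells) libraries, for the 15 genes of highest and the 5 of lowest r in Tom+ and for Glul, Dbp and tdTomato. The signs were the same in both libraries for each gene drawn, and the largest gap was that of Clu (0.32 and 0.11).

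The size behind these r values was modest. Set by set in thinned Tom+ zone 3-like cells, 414 with a Cpe UMI against 2730 without, Slc1a2 was at 410.5 against 204.7 CPM (log2 ratio 1.00, 0.95 to 1.06), Mfge8 at 43.6 against 25.2 (0.79, 0.62 to 0.96), Cd63 at 191.1 against 117.8 (0.70, 0.62 to 0.78) and Clu at 2353 against 1680 (0.49, 0.46 to 0.51). Igfbp2 was at 222.2 against 401.3 (-0.85, -0.92 to -0.78) and Rdh16f2 at 373.6 against 592.5 (-0.67, -0.72 to -0.61). These cells are among those by which the followers and opposing genes were picked, so the direction is no separate result. The intervals are for counting error and leave out the spread between cells. Over the 6206 genes the median was 0.03, and 18 genes were higher and 22 lower by 1.5-fold or more in cells with Cpe. Mfge8 was itself higher in Tom+ zone 3-like cells, at 26.6 against 12.8 CPM in Tom- (1.05, 0.92 to 1.18), while Clu differed by 0.05. Followers had to reach 20 CPM in Tom+ zone 3-like cells, a level Mfge8 did not have in Tom-, so nothing is read from its ratio. Glul was at 471.2 against 279.0 CPM and Dbp at 59.1 against 31.6.

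Clu was tied to Cpe above all in cluster 6, where its r was 0.42 against 0.19 without the clusters of at least 90% Tom+ cells. Ugdh was the reverse, at 0.17 in cluster 6 and 0.28 without it. In the most pericentral bin of the position score (1627 Tom+ zone 3-like cells) all 15 had a positive r, from 0.08 for Cyp2c55 to 0.31 for Ugdh. These cells are part of those by which the 15 were picked, so the sign is no separate result. That restriction was chosen after the data were seen, and 7 of the 15 were among the 15 highest under it.

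Promoters of the followers were searched for the letters of a Wnt effector motif (TCF/LEF, CTTTGAA and CTTTGAT), of the D-box that Dbp binds (TTATGTAA) and of the E-box (CACGTG), on both strands and from 250 bases before to 50 after each RefSeq start (GRCm38.p6). The table held 16 promoters for 13 of the 15 genes, and no entry for Cpe, Clu or Nrn1. TCF/LEF letters were found in 2 of the 16 promoters, that of Slc1a2 and 1 of the 3 of Tmem176b, E-box letters in 1, that of Adh1, and D-box letters in 0. Of 32851 promoters in the table, 8.65% held the TCF/LEF, 7.15% the E-box and 0.938% the D-box letters. Glul and Dbp held none of them. The 250 bases before the start of the pair with TCF/LEF letters are shown, because Slc1a2 is the follower with the largest ratio between cells with and without Cpe and these are the only TCF/LEF matches among the followers. Capitals mark the motif, which starts at position -207 in Slc1a2 (chr2:102706188-102706437, plus strand, motif on the opposite strand) and -171 in Tmem176b (chr6:48841138-48841387, minus strand).
Slc1a2: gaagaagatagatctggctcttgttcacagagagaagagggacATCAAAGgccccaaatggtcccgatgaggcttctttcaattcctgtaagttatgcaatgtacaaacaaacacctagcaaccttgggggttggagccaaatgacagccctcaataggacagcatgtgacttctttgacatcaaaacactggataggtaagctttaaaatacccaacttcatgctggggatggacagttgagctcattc
Tmem176b: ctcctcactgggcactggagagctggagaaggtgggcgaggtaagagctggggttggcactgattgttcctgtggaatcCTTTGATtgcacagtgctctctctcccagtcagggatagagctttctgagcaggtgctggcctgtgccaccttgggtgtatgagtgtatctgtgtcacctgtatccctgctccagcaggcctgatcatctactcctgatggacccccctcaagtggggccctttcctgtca

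A second measure of likeness used the levels of 25 groups of at least 100 cells, made of hepatocyte cluster by library. The groups share 2 libraries, so r is again a description. Among 8963 genes at a mean of 5 CPM or more, the highest r with Cpe were those of Cyp2d9 (0.87), Cdk5rap3 (0.87), Rheb (0.87), an activator of mTORC1, Cd276 (0.87), an immune checkpoint protein, and Fibp (0.87). Eif6 (0.86), Ugdh (0.85), Cd63 (0.85), Ces2c (0.85) and Ociad1 (0.85) followed. Ugdh and Cd63 were thus near Cpe by both measures. Cyp2d9 ran from 27.5 to 147.8 CPM over the groups, Cd276 from 1.78 to 11.9, Ces2c from 3.19 to 117.2, Ugdh from 78.6 to 314.8 and Cd63 from 9.88 to 132.1. The other genes had narrower ranges. Cdk5rap3 ran from 82.1 to 119.3 CPM, Rheb from 39.3 to 71.5, Fibp from 32.9 to 53.5, Eif6 from 26.5 to 57.2 and Ociad1 from 63.6 to 83.9. A high r here thus does not mean a wide range.

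Glul ranked 41 by this measure (0.81), with an r of 0.92 over 14 Tom+ groups and 0.82 over 11 Tom- groups. Dbp ranked 2370 (0.35), and its r was 0.25 within Tom+ and -0.39 within Tom-. tdTomato had an r of 0.63 over all groups, 0.64 in Tom+ and 0.51 in Tom-. Over all the groups of a library, Cpe levels thus went with Glul in both libraries. Among the pericentral clusters alone they did not rank by Glul. In Tom+, cluster 6 had the highest Cpe of these clusters (14.9 CPM) and the lowest Glul (258.2 CPM). In Tom-, cluster 9 had Cpe at 0.987 and Glul at 328.2 CPM, against 3.86 and 240.8 CPM in cluster 1. For Dbp the r was low in Tom+ and negative in Tom-.

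The genes around Cpe are given by family and pathway. Of 21 other genes of metallocarboxypeptidases or their subunits, 8 passed the minimum of 2 CPM, and none of these (0 up, 0 down) differed by 2-fold or more in Tom+ zone 3-like cells. Over all 9939 genes 0.181% were higher and 0.0201% lower by that much, so a count of 0 in a list of this size says nothing particular about its members, here and for the lists that follow. The median log2 ratio of the 8 was 0.04, beside 0.02 for all genes. Cpd, which acts in the trans-Golgi network, was at 15.6 CPM in Tom- and 13.3 in Tom+ (-0.22, -0.35 to -0.09). Cpm, of the cell surface, was at 3.85 and 4.03. The subunits of plasma carboxypeptidase N, Cpn1 and Cpn2, had ratios of 0.01 and -0.02, and Cpb2, which restrains fibrinolysis, 0.09 (0.06 to 0.12). The tubulin deglutamylase Agtpbp1 was at -0.08, and its relatives Agbl3 and Agbl5 were at 0.55 (0.27 to 0.84) and 0.31 (0.11 to 0.53), beyond counting error. In all, 8 members had 0 UMIs in these cells, among them the pancreatic digestive enzymes Cpa1 and Cpb1.

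Of 13 genes of peptide hormone processing, 4 passed the minimum and 0 went past 2-fold: Pam, the amidating enzyme, at 3.54 and 3.56 CPM in Tom- and Tom+, Qpct, which cyclises glutamine, at 21.6 and 22.7, Bace1 at 29.8 and 30.1, and Ctsl, cathepsin L, at 368.5 and 360.3. The neuroendocrine convertases had 1 UMI (Pcsk1) and 0 UMIs (Pcsk2) in the zone 3-like cells of both libraries together, and the granin-family genes Chga, Scg3 and Vgf had 0 there. Chgb had 0 UMIs in Tom- and 9 in Tom+ (0.0589 CPM), and Scg2 had 1 and 22 (0.144 CPM in Tom+). Of 22 peptide precursors 0 passed the minimum and 11 had 0 UMIs. Bdnf was at 1.92 and 1.98 CPM, and Pomc was at 0.311 and 0.341. These counts are limited to the probes and this depth.

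The convertases of the constitutive route were present. The 6 described here passed the minimum, and 0 of them went past 2-fold. Furin was at 322.0 and 324.0 CPM (0.01), and Pcsk6 at 142.8 and 169.2 (0.24, 0.20 to 0.29). Pcsk5 was at 79.5 and 74.0 (-0.10), Mbtps1 at 76.2 and 85.1 (0.16), and Pcsk4 and Pcsk7 had ratios of 0.03 and -0.03. Their r with Cpe across Tom+ cells was between -0.05 and 0.03, beside a median of 0.01 for all genes.

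Of the Wnt targets of pericentral hepatocytes, all 16 passed the minimum, 0 went past 2-fold in either direction and 4 were above 0. The median log2 ratio was -0.08. Axin2 was at 211.0 CPM in Tom- and 170.0 in Tom+ (-0.31, -0.35 to -0.28), Glul at 250.9 and 291.2 (0.22, 0.18 to 0.25), and Oat, which makes glutamate from ornithine, at 195.4 and 284.7 (0.54, 0.51 to 0.58). Their r with Cpe from cell to cell had a median of 0.07 over the 14 genes at 20 CPM or more, beside 0.01 for all genes.

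Dbp was not alone among the genes of the clock. Of 11 genes of the repressor phase and the circadian output, 9 passed the minimum and 2 were at least 2-fold higher in Tom+ zone 3-like cells, Dbp (7.59 and 35.2 CPM; 2.21, 2.05 to 2.38) and Per3 (10.5 and 28.4; 1.43, 1.29 to 1.58). Per2 was at 0.82 (0.69 to 0.94), Tef, a relative of Dbp, at 0.64 (0.58 to 0.70), Nr1d2 at 0.13, Hlf at 0.11, Usp2 at 0.01, Nr1d1 at -0.07 and Per1 at -0.11. The median was 0.13. Of the activator phase 5 genes passed and 0 went past 2-fold, with a median of -0.17: Npas2 -0.53 (-0.68 to -0.37), Clock -0.20, Nfil3 -0.17, Arntl -0.04 and Cry1 0.07. The r of these genes with Cpe across Tom+ cells lay between -0.10 and 0.10, highest for Dbp (0.10) and Nr1d2 (0.09). The hour of collection is not given in the sources used here, and its part in these differences was not tested.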

How the data were processed

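Liver cells were measured by probe-based single-cell RNA sequencing of fixed cells, with 1 Tom- and 1 Tom+ library. The authors made the counts with Cell Ranger 7.2.0 on mm10 from the commercial mouse probe set plus custom probes, and the deposited matrices give unnormalised UMI counts of each gene in each cell. Cells with 2000 to 10000 genes, at most 100000 UMIs and a mitochondrial fraction of at most 0.05 were kept, as in the study. Clustering (2000 variable genes without Cpe and tdTomato, 30 principal components, 20 neighbours, Leiden resolution 0.8, leidenalg 0.10.2 in Python 3.11.15) was run on all cells. Left out were clusters whose median gene number was under 0.75 of the overall median and clusters in which Ptprc, Dcn or Pecam1 reached 2.5 times its median over clusters, and the remaining hepatocytes were clustered again. A cluster was named zone 1-, 2- or 3-like from at least 3 markers at 5 CPM and 1.5-fold above the other clusters, more than any other zone, with 1 among its top 10 genes. These limits were set after earlier results of these data had been seen, and Cpe, the gene lists and the tests were likewise chosen with earlier results of these data known.

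Counts were summed per class and library. CPM has exact Poisson intervals, shares exact Clopper-Pearson intervals and log2 ratios exact conditional intervals at 95%, for counting error only. PCR duplicates are merged by UMIs. Ratios over all genes used a pseudocount of 0.5 UMIs and genes at 2 CPM in the mean of the libraries and 20 UMIs. The named genes are the 15 highest and 5 lowest by r with Cpe in Tom+ zone 3-like cells, the 10 highest over cluster groups, tdTomato, Glul, Dbp and list genes at 2 CPM in zone 3-like cells where a list has fewer than 10 of them. Genes outside this rule (leading cluster genes, marker genes, Orm3, Cpsf4l, Cpa1, Cpb1, neuroendocrine genes at or near 0 UMIs Axin2 and Oat) were named after their values were seen. No doublets were removed. Cpe was at 4.13 CPM in the 10% of Tom+ cells nearest to simulated doublets and 4.82 CPM in the others. The functions were tested on simulated data. The alternatives were other resolutions, separate clustering, position terciles, other gene limits, thinning, means over cells and leaving out cells or clusters. A probe reads short targets, so CPM values rank no gene against another. One member of a gene list is not reported here.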

Additional observations from a re-analysis of the deposited data

Results flagged for a closer look

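Cells outside the filters also held Cpe. Tom+ cells over 100000 UMIs (1239 cells) had 524 Cpe UMIs, a level of 3.05 CPM (2.80 to 3.33), against 0.265 CPM (0.137 to 0.462) from 12 UMIs in 360 Tom- cells. The report leaves these cells out of its classes, and their level stood above that of the Tom- cells outside the same limit.

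Tom+ cells with under 2000 genes (1682 cells) had 32 Cpe UMIs in 25 cells, a level of 9.96 CPM (6.81 to 14.1), against 3.06 CPM (1.84 to 4.78) from 19 UMIs in 2663 Tom- cells. They too were left out of the classes. The cell types behind both sets were not analysed here.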

How the results depend on the processing

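The 8 log2 ratios of Cpe that were recomputed stayed above 0 under the alternatives tried, although intervals held 0 for Dbp and tdTomato under some, while the balance of genes higher and lower in Tom+ turned under 2 of them. Cpe was chosen by its ratio of Tom+ over Tom- in pericentral cells, and the ratio over all hepatocytes includes those cells. Nothing is read from the sign of either. The log2 ratio of Tom+ over Tom- in zone 3-like cells (1.66) ranged from 1.35 to 2.03 over 13 alternatives. It was 1.95 at resolution 1.2, 1.92 with classes from position terciles, 1.96 with 3000 to 8000 genes per cell, 2.02 with Cpe and tdTomato among the candidate genes for clustering, 1.93 without the 10 cells of each library with most Cpe, 2.03 with clusters of few genes per cell kept and 1.35 without the clusters of at least 90% Tom+ cells. Leaving out those clusters also gave 2.63 over all hepatocytes (main 3.05), 3.54 for zone 3-like over zone 1-like in Tom+ (4.03), 2.31 for Glul (1.85), 0.50 for Dbp (1.36) and 1.16 for tdTomato (0.80). Leaving out the cells with most Cpe gave 3.25 over all hepatocytes. Thinning to 5000 UMIs gave 0.97 for Glul, 1.04 for Dbp (-0.19 to 2.05) and 0.039 for tdTomato. Position terciles gave 1.66 for Dbp. Among alternatives chosen after the data were seen, Cpe at full depth gave 1.45 for Glul, and 2 other thinning draws gave 0.42 and 0.25 for tdTomato. The 20 genes at least 2-fold different in zone 3-like cells became 52 with thinning, 5 without the clusters of at least 90% Tom+ cells, 8 at a minimum of 10 CPM and 287 with no minimum. Of them 18 were higher and 2 lower in Tom+, against 8 and 14 with each library clustered on its own, 2 and 3 without the clusters of at least 90% Tom+ cells, and 11 and 7 with position terciles. The causes were not tested. The ratio in zone 1-like cells stayed between 2.24 and 3.14 over 12 alternatives, and zone 3-like over zone 1-like in Tom- between 4.28 and 5.25. Of the 15 followers, 11 were shared with Spearman's rho, 11 after thinning and 10 without the clusters of at least 90% Tom+ cells. In cluster 6 alone 7 were shared, and in the most pericentral bin 7. No paired analysis was possible because the Tom- and Tom+ groups have 1 library apiece, and no replicate could be left out for that reason. Depth limits Dbp in Tom- cells and every level that rests on under 20 UMIs.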
